A study of Rattus norvegicus with 6 samples.

Results

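Elastic fibres are built from a core of elastin laid down on bundles of fibrillin microfibrils, and the 10 genes described here encode elastin (Eln), the fibrillins (Fbn1, Fbn2), the microfibril-associated glycoprotein Mfap5, the fibulins (Fbln1, Fbln2, Fbln5, Efemp1, Efemp2) and Emilin1. They were chosen by gene symbol, and all 10 were found among the 17525 genes of the deposited table. Messenger RNA was measured by poly(A)-selected sequencing in primary ovarian granulosa cells of SD rats that were 21 days old, had received 60 IU of pregnant mare serum gonadotropin and gave their ovaries 48 h later. The dispersed cells were cultured in medium with 10% serum. The titles name an ATR group and a Control group of 3 libraries each, and the series' title concerns atrazine, a triazine herbicide, although ATR is nowhere written out in the labels. They give neither dose nor duration, nor whether exposure took place in the animal or in the dish. Libraries of the Control group are not analysed here. Every value below is therefore a level, or a difference between libraries, within the ATR group, and none is an effect of an exposure. Nothing in the labels ties a library to its own animal or culture, so p-values measure only the spread between these samples, which may be technical.

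In the extracellular space fibrillins assemble end to end into microfibrils, which also hold latent TGF-beta and BMPs. Fibulin-4 (the product of Efemp2) and fibulin-5 (Fbln5) bind elastin monomers and lead them to microfibrils and to lysyl oxidases, which cross-link them, and EMILIN-1 lies where elastin and microfibrils meet. In the ovary these fibres are known mainly from stroma, theca and vessel walls, outside the granulosa layer.

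The libraries, called ATR 1, ATR 2 and ATR 3, held 19020464, 18677194 and 19170515 reads assigned to genes, after rounding. Of the 10 granulosa markers 8 reached 1 TPM. Gja1 stood at 1821 to 2036 TPM, Inhba at 280 to 284 TPM and Gata4 at 180 to 205 TPM. Foxl2 stood at 48.0 to 63.6 TPM (a level per transcript length, scaled to the same sum in each library) and Inha at 378 to 522 TPM. Fshr stood at 4.77 to 7.38 TPM only, Amh had 0, 2 and 1 reads, and Cyp19a1 had at most 2.33 estimated reads. Granulosa markers were thus in part high and in part at or near 0. Of the smooth muscle markers all 9 measured reached 1 TPM, with mean levels between 1.34 TPM for Notch3 and 10891 TPM for Tagln. Of the surface epithelium and mesothelium markers 7 of 10 did, with Upk3b at 1316 to 1513 TPM, while Krt19, Muc16 and Epcam averaged 0.14, 0.17 and 0.33 TPM. The endothelial markers Pecam1 and Cdh5 had at most 3 reads in a library.

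The promoters of 4 genes are printed to set the most abundant gene (Fbln5) and a gene that was nearly level between libraries (Efemp2) beside a pair that varied more and had its lowest level in ATR 1 (Fbln2, Mfap5). Each window runs from 250 bases before to 50 after the start of transcription, 5′ to 3′ on the gene's strand, as given by RefSeq on build GRCr8. Capitals mark matches to any of 5 motifs, each searched on both strands. The GC box was searched as GGGCGG, a sequence bound by factors of the SP family. The AP-1 site was searched as TGANTCA, which allows any middle base and so is wider than the usual sites of Fos and Jun proteins. The TEAD site was searched as GGAATG, which partners of YAP bind. The TATA box was searched as TATAAA, and the CArG box, which serum response factor binds, by its usual pattern. The windows are chr6:126742657-126742956 (minus strand) for Fbln5, chr1:212211472-212211771 (plus strand) for Efemp2, chr4:125261409-125261708 (plus strand) for Fbln2 and chr4:157399669-157399968 (plus strand) for Mfap5.
Fbln5: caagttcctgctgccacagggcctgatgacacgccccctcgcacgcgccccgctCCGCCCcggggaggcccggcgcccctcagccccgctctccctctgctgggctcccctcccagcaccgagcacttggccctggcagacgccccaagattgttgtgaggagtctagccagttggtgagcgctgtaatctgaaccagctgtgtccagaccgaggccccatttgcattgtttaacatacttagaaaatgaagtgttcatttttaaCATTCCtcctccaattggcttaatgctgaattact
Efemp2: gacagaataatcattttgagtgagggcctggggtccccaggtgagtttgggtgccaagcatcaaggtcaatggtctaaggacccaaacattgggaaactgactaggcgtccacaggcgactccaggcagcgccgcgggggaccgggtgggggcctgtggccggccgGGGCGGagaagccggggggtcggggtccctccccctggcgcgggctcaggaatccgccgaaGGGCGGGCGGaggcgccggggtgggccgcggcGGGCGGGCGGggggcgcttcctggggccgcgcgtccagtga
Fbln2: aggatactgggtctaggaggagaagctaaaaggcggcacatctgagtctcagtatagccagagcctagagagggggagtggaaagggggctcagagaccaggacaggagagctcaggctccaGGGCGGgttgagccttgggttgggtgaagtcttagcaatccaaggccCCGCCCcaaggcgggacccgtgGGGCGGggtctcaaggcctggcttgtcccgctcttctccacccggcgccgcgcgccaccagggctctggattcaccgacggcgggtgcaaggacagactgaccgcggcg
Mfap5: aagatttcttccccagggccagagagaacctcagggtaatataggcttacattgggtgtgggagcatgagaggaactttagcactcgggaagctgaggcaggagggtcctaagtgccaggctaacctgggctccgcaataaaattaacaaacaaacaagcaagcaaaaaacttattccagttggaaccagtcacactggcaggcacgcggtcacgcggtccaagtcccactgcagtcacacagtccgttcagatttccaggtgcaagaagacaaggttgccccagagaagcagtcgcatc

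Efemp2 held 5 GC boxes, a part of them overlapping each other, Fbln2 held 3 and Fbln5 held 1, whereas none of the motifs searched occurred in the Mfap5 window. Promoters were matched for 7 of the 10 genes. A GC box was present in 4 of these 7, against 56.3% of the 13242 promoters of genes in the table, so its share was close to that of promoters in general. TEAD sites were found in Fbn2 and Fbln5 (11.9% of all promoters) and a match to the wide AP-1 pattern, TGAATCA, in Efemp1 (5.50%). No TATA box (8.41%) and no CArG box (1.37%) lay in the 7 windows. The GC content of the 7 windows ran from 51.7% in Mfap5 to 71.0% in Efemp2, with a median over all promoters of 59.7%. These matches describe letters in a window and are not sites of binding.

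All 10 genes were expressed, at levels that spanned more than 2 orders of magnitude, and the short fibulins stood far above elastin and the fibrillins. Their mean levels had a median of 55.3 TPM, against 10.1 TPM over all 17525 genes. All 10 reached 1 TPM, as did 71.4% of all genes, and 3 reached 100 TPM, as did 10.7% of all genes. Together they held 0.167%, 0.155% and 0.158% of all TPM in ATR 1, ATR 2 and ATR 3. Fbln5, Efemp1 and Efemp2 made up 89.0%, 82.6% and 85.2% of that sum.

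**Figure D1:**
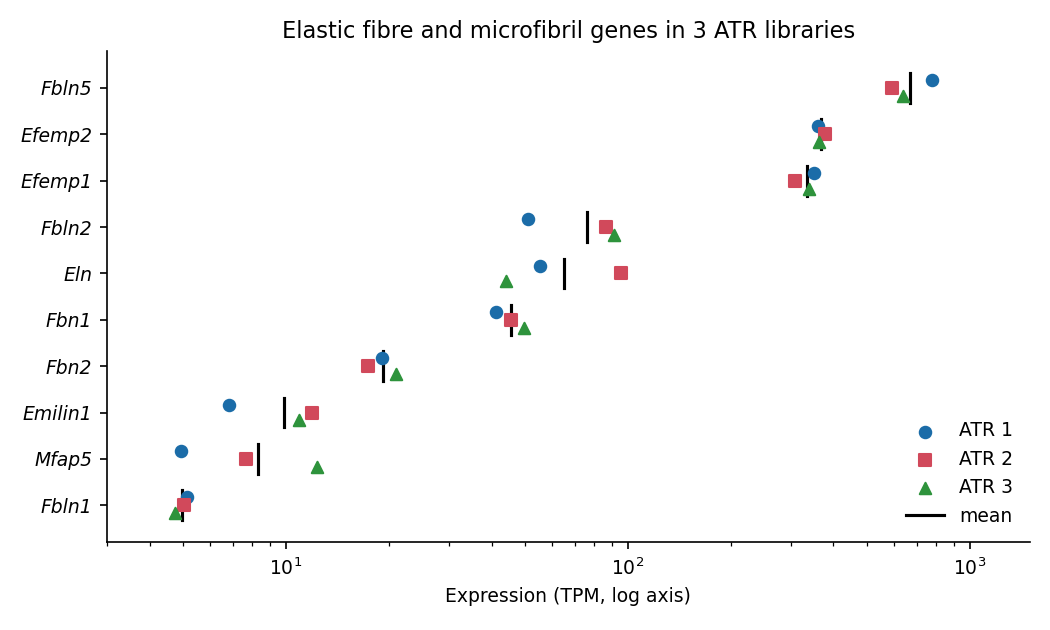
Expression (TPM, log axis) of the 10 genes in ATR 1 (circles), ATR 2 (squares) and ATR 3 (triangles), with the mean of the 3 libraries as a black line. Fbln5, Efemp2 and Efemp1 lie above 300 TPM in each library, while Emilin1, Mfap5 and Fbln1 lie below 13 TPM.

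Elastin, the elastic core, was a moderately expressed gene. Eln stood at 55.4 TPM in ATR 1, 95.9 TPM in ATR 2 and 44.1 TPM in ATR 3, from 1782, 3100 and 1456 reads, with a mean of 65.2 ± 27.2 TPM (SD, n = 3). ATR 2 was high, and the other libraries were close to each other by comparison.

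The microfibril genes were led by Fbn1, the main fibrillin of postnatal tissue, with 41.2, 45.7 and 49.7 TPM in the libraries ATR 1 to ATR 3 (45.5 ± 4.27 TPM). Fbn2, the fibrillin best known from embryonic tissue, stood at 19.2, 17.4 and 21.0 TPM. Fbn1 exceeded Fbn2 by 2.15, 2.63 and 2.36 times, with lower bounds of the exact 95% counting intervals at 2.02, 2.47 and 2.23. Fibrillin transcripts are long, and Fbn1 drew 3583 to 4378 reads per library, more than Eln, whose TPM was the higher in ATR 1 and ATR 2 and the lower in ATR 3. Mfap5, a small glycoprotein that binds fibrillin and Notch ligands, was much lower at 4.94, 7.64 and 12.4 TPM, from 43, 62 and 105 reads. The exact Poisson 95% intervals of these counts were 31.1 to 57.9 reads in ATR 1 and 85.9 to 127 reads in ATR 3, so those libraries were apart beyond counting error, which is all that these intervals cover.

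Among the fibulins, Fbln5 was the most abundant gene of the group and ranked 239 of 17525 genes by mean TPM. Its levels were 777, 592 and 640 TPM in the libraries ATR 1 to ATR 3 (670 ± 96.1 TPM), and ATR 1 was the highest. Efemp2, whose loss in mice prevents elastic fibre formation, was nearly the same in each library, at 360, 378 and 363 TPM (367 ± 9.81 TPM). Efemp1, which encodes fibulin-3, followed at 351, 310 and 340 TPM. Efemp2 was the higher of these last genes in each library, by 1.02, 1.22 and 1.07 times, but in ATR 1 the counting interval of the ratio (0.987 to 1.06) includes equality. Fbln2, a large fibulin of basement membranes and vessel walls, stood at 51.2, 86.2 and 91.2 TPM, with ATR 1 well below the others. Fbln1, the other large fibulin, had the lowest mean of the 10 genes, at 5.14, 5.06 and 4.76 TPM, although Mfap5 was below it in ATR 1. Fbln5 exceeded Fbln1 by 151, 117 and 135 times, so fibulins covered both ends of the range.

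Emilin1, a glycoprotein that in mice restrains the processing of TGF-beta precursors, was low at 6.81, 11.9 and 10.97 TPM, from 235, 415 and 392 reads. ATR 1 was again the lowest library.

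In the order of mean levels, neighbours were separated in every library for Fbln5 over Efemp2, Efemp1 over Fbln2, Fbn1 over Fbn2 and Fbn2 over Emilin1. The values of Efemp2 and Efemp1 did not overlap either, but the counting interval of their ratio in ATR 1 included equality. The neighbours Fbln2 and Eln had overlapping values, and Eln was the higher in ATR 1 (1.08 times) and ATR 2 (1.11 times) but at 0.483 times Fbln2 in ATR 3. Eln and Fbn1 overlapped too, with Eln at 1.35 times Fbn1 in ATR 1, above it in ATR 2 and at 0.888 times Fbn1 in ATR 3. Emilin1 was above Fbln1 in each library, but Mfap5 had no fixed place beside them. It stood at 0.961 times Fbln1 in ATR 1 (95% interval 0.663 to 1.37) and Emilin1 stood at 0.886 times Mfap5 in ATR 3 (0.713 to 1.11), both intervals including equality. Fbln5 stood at 14.0 and 14.5 times Eln in ATR 1 and ATR 3 but at 6.17 times in ATR 2 (95% interval 5.94 to 6.42).

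Spread between libraries was tested with a chi-square test of each gene's 3 read counts against the scaled library sizes, adjusted over all 13309 genes with at least 30 reads (Benjamini-Hochberg, threshold 0.05). The test compares these libraries and not conditions, and since reads carry no molecular identifiers it treats duplicates as independent. It was passed by 9 of the 10 genes, against 23.2% of all genes tested (3087 genes). The share passing grows with read number. Among the 4216 genes averaging 50 CPM or more (reads scaled to library size) it was 39.3%, and all 7 of the elastic fibre genes above that limit, which was chosen after the values were seen, passed. With ATR 1 left out 6 of the 10 genes and 1528 of the 12866 genes then tested passed. Without ATR 2 it was 7 of the 10 and 1871 of 12848, and without ATR 3 it was 7 of the 10 and 2230 of 12868. The SD on the log2(CPM + 0.5) scale had a median of 0.16 over the 10 genes and of 0.08 over the 12589 genes averaging 1 CPM or more. In cells pooled as these were, fewer cells of a type and less RNA per cell cannot be told apart.

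**Figure D2:**
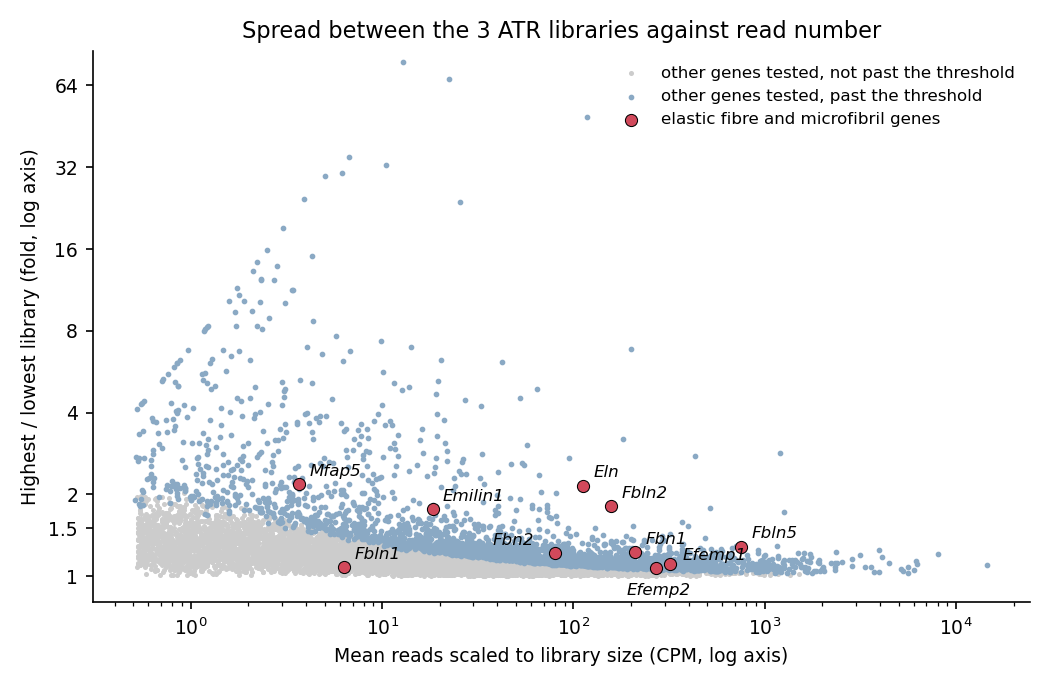
Ratio of the highest to the lowest ATR library (log axis) against mean reads scaled to library size (CPM, log axis) for the 13309 genes tested, with genes past the chi-square threshold in blue, the others in grey and the 10 elastic fibre and microfibril genes in red. Eln and Mfap5 lie above 2-fold, Fbln2 and Emilin1 between 1.5-fold and 2-fold, and Efemp2 passed the threshold at 1.07-fold with 4971 to 5242 reads per library.

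Size of spread separated the genes more clearly than the test. Of all genes tested, 2.8% passed the test with a ratio of at least 2 between the highest and the lowest library. Of the 10 genes 2 did so, Eln and Mfap5. With a limit of 1.5, which was chosen after the values were seen, Fbln2 and Emilin1 joined them. That gave 4 of the 10 genes, all past the test, while 5.08% of all genes tested both passed it and reached 1.5. Neither percentage counts genes that reached the limit without passing the test, so the share by size alone is larger. The remaining 6 genes varied by 1.29-fold or less.

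Of the 9 genes that passed, Eln alone had its lowest level in ATR 3. Fbln1, which did not pass, had the same order of libraries in scaled reads. Reads of Eln in ATR 2 were 1.77 times those in ATR 1 (95% interval 1.67 to 1.88) and 2.16 times those in ATR 3 (2.03 to 2.30), with an adjusted p of 2.10e-161 in the chi-square test. The call held with each library left out in turn, since all 3 libraries differed from each other. The genes whose deviations over the 3 libraries lay nearest to those of Eln were Galnt18, Spock2 and Cyp1a1, at Euclidean distances of 0.14 each on the log2 scale. Cyp1a1, a cytochrome P450, stood at 6.14, 12.6 and 5.18 TPM. Only 5 of the 10506 genes compared lay within 0.2, but 3 libraries are few points for such a likeness.

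The lowest level lay in ATR 1 for 5 of the genes that passed, by gaps of unlike size. Of the 10 genes, Fbln2, Emilin1, Mfap5, Fbn1 and Efemp2 passed the chi-square test with their lowest level in ATR 1, against 9.07% of all genes tested. Another 3 (Fbln5, Efemp1 and Fbn2) passed with their lowest level in ATR 2, against 8.48%, and 1 (Eln) in ATR 3, against 5.65%. Of all 3087 genes that passed, 1207 were lowest in ATR 1, 1128 in ATR 2 and 752 in ATR 3. Reads of Fbln2 in ATR 1 were 0.581 times those in ATR 2 (95% interval 0.549 to 0.614) and 0.551 times those in ATR 3 (0.522 to 0.583). ATR 2 and ATR 3 were close to each other, and without ATR 1 the chi-square test gave an adjusted p of 0.151. Reads of Emilin1 in ATR 1 were 0.557 times those in ATR 2 (0.473 to 0.655) and 0.599 times those in ATR 3 (0.507 to 0.706), and without ATR 1 its adjusted chi-square p was 0.609. In both genes ATR 1 was the lowest by the widest gap, while Fbln2 was highest in ATR 3 and Emilin1 in ATR 2. Without ATR 1 the adjusted chi-square p was 0.00296 for Fbn1, 0.0152 for Mfap5 and 0.290 for Efemp2. The 95% intervals of the ATR 1 to ATR 3 ratio of Efemp2 (0.929 to 1.005) and the ATR 1 to ATR 2 ratio of Mfap5 (0.451 to 1.02) included equality.

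Mfap5 had its highest level in ATR 3. Its reads in ATR 3 were 2.44 times those in ATR 1 (95% interval 1.70 to 3.57) and 1.67 times those in ATR 2 (1.21 to 2.32), and without ATR 3 the chi-square test gave an adjusted p of 0.191. The ratio of reads to TPM, which follows the transcript length that the authors' software assigned, varied by 3.90% between libraries for Mfap5, against a median of 0.0648% over 10265 genes at 5 TPM or more. Of those genes, 996 varied by more than 2%, and Mfap5 ranked 354, so such variation was not rare. The assigned length of Mfap5 therefore differed between libraries, and which transcripts were behind it was not tested. The genes nearest to Mfap5 over the libraries were LOC100360828, Svep1 and Pkp1, at distances of 0.07, 0.09 and 0.11, with 5 of 10507 genes within 0.2.

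The fibrillins differed little. Reads of Fbn1 in ATR 3 were 1.22 times those in ATR 1 (95% interval 1.17 to 1.28), and its chi-square call held with each library left out. Reads of Fbn2 in ATR 3 were 1.22 times those in ATR 2 (1.13 to 1.31), and without ATR 3 the adjusted chi-square p was 0.174.

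Of the abundant fibulins, Fbln5 and Efemp1 had their lowest level in ATR 2, while Efemp2 stayed nearly level. Reads of Fbln5 in ATR 1 were 1.29 times those in ATR 2 (95% interval 1.26 to 1.32) and 1.18 times those in ATR 3 (1.15 to 1.21), and its chi-square call held with each library left out. Reads of Efemp1 in ATR 2 were 0.901 times those in ATR 1 (0.869 to 0.934), and without ATR 2 its adjusted chi-square p was 0.924. Efemp2 differed by 1.07-fold at most, with adjusted chi-square p values of 0.0129 over the 3 libraries, 0.290 without ATR 1 and 0.276 without ATR 2. Fbln1, from 114 to 123 reads per library, did not pass the test (adjusted chi-square p of 0.872), and the interval of its ATR 3 to ATR 1 ratio ran from 0.713 to 1.21, so a difference within that range was not detectable at this depth.

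**Figure D3:**
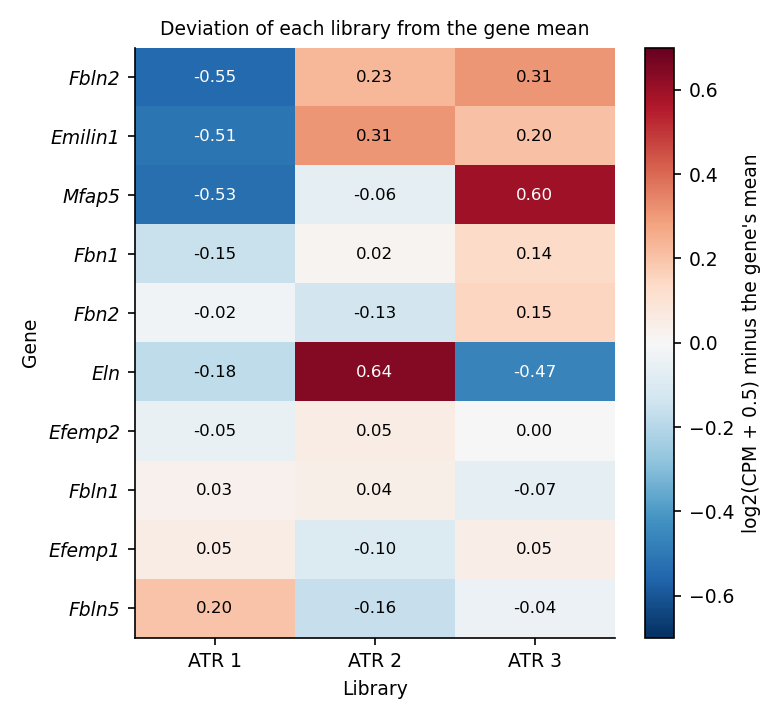
Deviation of each ATR library from the gene's mean on the log2(CPM + 0.5) scale for the 10 genes, red for higher and blue for lower. Fbln2, Emilin1 and Mfap5 are at -0.55, -0.51 and -0.53 in ATR 1, Eln is at 0.64 in ATR 2, and Fbln5 is at 0.20 in ATR 1.

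Markers of other cells also differed between these libraries. Of the stromal fibroblast markers 10 of 11 were measured, and of the 9 with at least 1 CPM, 4 were lowest in ATR 1 (Pdgfra, Thy1, Prrx1 and Lum), 4 in ATR 3 and 1 in ATR 2. Thy1 stood at 23.2, 104 and 82.7 TPM and Prrx1 at 12.0, 46.98 and 29.2 TPM, an order of libraries that Emilin1 shared. The more abundant Col14a1 (333, 267 and 305 TPM) and Ogn (203.5, 181 and 179 TPM) were instead highest in ATR 1. Of the 9 markers, 3 were highest in ATR 1, 5 in ATR 2 and 1 in ATR 3. The summed level of the list was 627, 663 and 655 TPM in ATR 1, ATR 2 and ATR 3, and its member Tcf21 had 0, 4 and 1 reads. Granulosa markers were highest in ATR 1 for 5 of the 8 with at least 1 CPM, with sums of 3180, 2881 and 2776 TPM. Smooth muscle and pericyte markers summed to 17708, 16537 and 16367 TPM, sums that Tagln and Acta2 carry. Surface epithelium markers summed to 2332, 2211 and 2279 TPM, most of it Upk3b, but 4 of the 8 tested passed with their lowest level in ATR 1, among them Krt7 at 55.0, 88.9 and 79.9 TPM. Theca markers summed to 113, 142 and 148 TPM, most of it Star at 77.1, 105 and 110 TPM. Leukocyte markers summed to 95.6, 121 and 119 TPM, most of it Lyz2 at 60.2, 78.6 and 83.2 TPM, so both sums were lowest in ATR 1, as Fbln2 and Emilin1 were. Endothelial markers summed to 4.53, 3.96 and 4.16 TPM. Of the 9 smooth muscle and pericyte markers measured, 5 were highest in ATR 1 and 4 in ATR 2. Des stood at 7.22, 20.4 and 7.69 TPM and Pdgfrb at 9.40, 17.4 and 12.2 TPM, both highest in ATR 2 as Eln was. Myh11 went the other way, at 67.45, 49.1 and 55.2 TPM, and Acta2 too was lowest in ATR 2. The part of these cells in the spread of the elastic fibre genes was not tested.

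**Figure D4:**
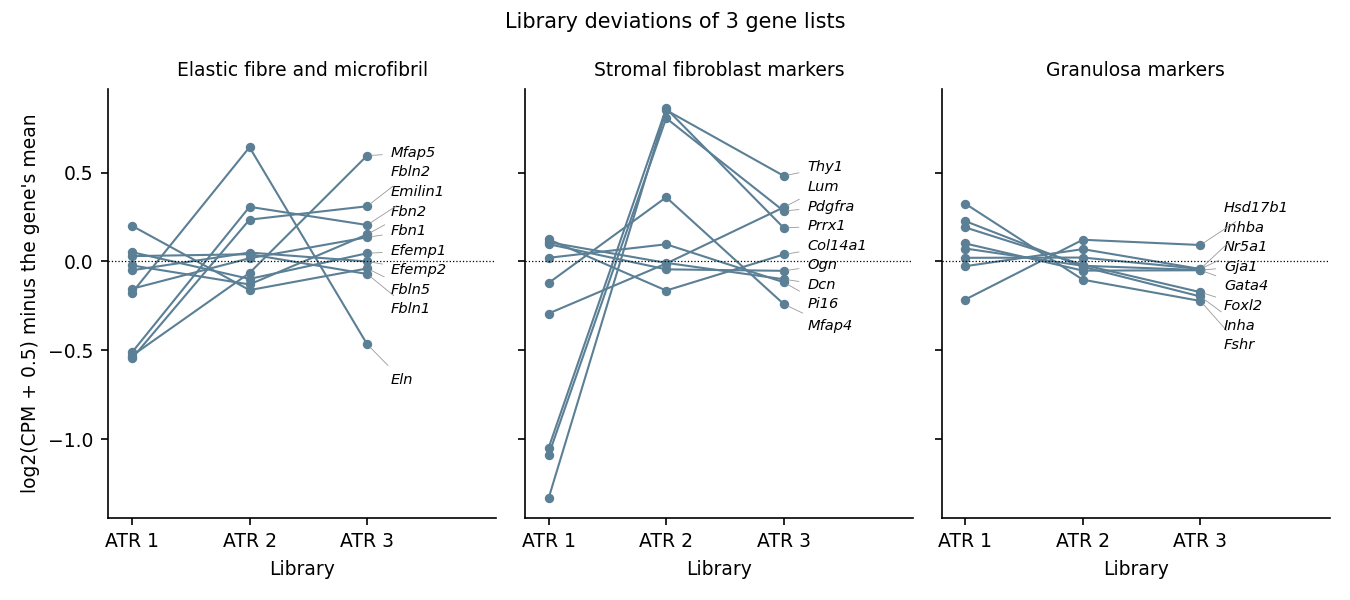
Deviation of each ATR library from the gene's mean on the log2(CPM + 0.5) scale, for the 10 elastic fibre and microfibril genes, 9 stromal fibroblast markers and 8 granulosa markers, with a line joining the values of each gene. Thy1, Prrx1 and Pdgfra lie farthest below their means in ATR 1, while 5 of the 8 granulosa markers are highest there.

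The other genes of the elastic fibre pathway were taken from 11 lists grouped by role, of which 77 of 82 entries were measured. Levels of at least 1 TPM were found for 63 of them and of at least 100 TPM for 32, and their median was 46.5 TPM. Of the 66 with enough reads, 36 passed the chi-square test (20 without ATR 1), against 23.2% of all genes tested and 39.3% of those averaging 50 CPM or more. Of the 36, 14 were lowest in ATR 1, 17 in ATR 2 and 5 in ATR 3. The spread of the pathway genes was small: 1 that passed, Mmp2, reached 2-fold, and the lists' median SD of 0.10 on the log2(CPM + 0.5) scale lay between that of the 10 genes (0.16) and that of all genes (0.08).

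Partners that act directly on elastin and fibrillin ranged widely in level. The lysyl oxidases, which cross-link elastin, were led by Lox at 661, 549 and 633 TPM and Loxl2 at 281, 255 and 294 TPM, with both lowest in ATR 2, where Eln was highest. Loxl1, Loxl3 and Loxl4, at 54.9, 24.4 and 2.19 TPM on average, had their highest values in ATR 2 and did not pass the chi-square test. Lox thus stood at 11.9, 5.72 and 14.3 times Eln. Slc31a1, the copper importer, stood at 137 ± 6.80 TPM. Of the latent TGF-beta binding proteins, which share the fibrillin fold and attach to microfibrils, Ltbp2 stood at 304 ± 16.2, Ltbp1 at 185 ± 14.0 and Ltbp3 at 141 ± 6.06 TPM. Ltbp4 was lower, at 16.8 ± 2.34 TPM, and all 4 of that list passed the chi-square test, at 1.35-fold or less. The fibrillin-binding ADAMTS list had a median of 8.45 TPM, and 1 of its 9 genes reached 100 TPM. That gene, Adamts10, a protease-like protein that binds fibrillin-1, stood at 127 ± 11.7 TPM. Furin, the convertase that trims profibrillin, stood at 200 ± 8.62 TPM, and the folding proteins Fkbp10, P4hb and Hspa5 at 279 ± 4.19, 1156 ± 25.7 and 1302 ± 98.1 TPM.

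Other microfibril and elastic fibre proteins were lower, with a median of 4.51 TPM, and 7 of the 12 measured reached 1 TPM. None reached 100 TPM. Mfap2, the close relative of Mfap5, stood at 38.0, 30.1 and 31.6 TPM and exceeded Mfap5 by 7.70, 3.95 and 2.55 times. Mfap2 did not pass the chi-square test. Mfap4, which also stands in the stromal list, was at 9.90, 13.8 and 8.82 TPM, with ATR 2 high and ATR 3 low, the order of libraries seen for Eln.

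**Figure D5:**
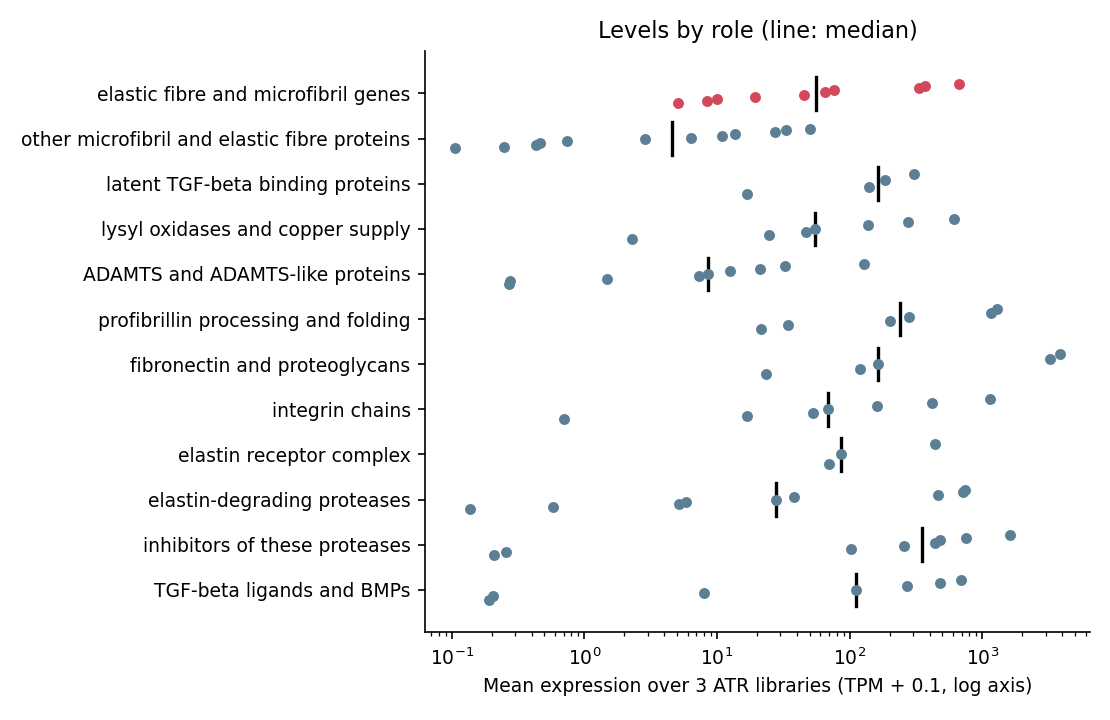
Mean expression over the 3 ATR libraries (TPM + 0.1, log axis) of the 10 elastic fibre and microfibril genes (red) and of the 11 lists of other pathway genes (grey-blue), 1 point per gene and a black line at each median. The 10 genes have a median of 55.3 TPM, and the other microfibril and elastic fibre proteins one of 4.51 TPM.

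Matrix and cell surface partners were present. Fn1, the fibronectin on which fibrillin assembles, stood at 3823 ± 177 TPM, and the proteoglycans Bgn, Hspg2 and Vcan at 3232 ± 65.4, 164 ± 1.93 and 120 ± 10.2 TPM. The integrin chains Itgb1, Itgb5 and Itgav, parts of receptors for fibulin-5 and fibrillin, stood at 1136 ± 49.0, 418 ± 4.22 and 161 ± 7.41 TPM. Ctsa, a part of the elastin receptor complex, stood at 440 ± 16.4 TPM. Of the growth factors that microfibrils hold, Tgfb3 stood at 690 ± 84.8, Tgfb2 at 482 ± 43.2, Bmp4 at 270 ± 27.1 and Tgfb1 at 111 ± 8.52 TPM. Bmp7 and Bmp5 had at most 4 reads in a library.

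Of the elastin-degrading proteases, 9 of 11 were measured. Mmp2 stood at 22.2, 56.5 and 35.5 TPM, lowest in ATR 1 and 2.57-fold apart, and it passed the chi-square test. The classical elastases were low, with Mmp12 (macrophage elastase) at 3.92 to 6.10 TPM and Mmp9 at 2 reads or fewer in each library. The lysosomal proteases Ctsb and Ctsl stood at 747 ± 14.3 and 717 ± 80.0 TPM, and Mmp14, a membrane-bound protease that activates Mmp2, at 465 ± 13.6 TPM. Of the inhibitor list, the cathepsin inhibitor Cst3 stood at 757 ± 33.7 TPM. Timp1, Timp2 and Timp3, inhibitors of metalloproteinases, stood at 478 ± 26.1, 440 ± 10.1 and 102 ± 2.66 TPM, and Serpine2 at 257 ± 45.4 TPM.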

How the data were processed

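Per the labels' protocols, poly(A) RNA was selected from Trizol extracts and sequenced as pairs of 150 bases; no strand-marking step is described. StringTie 2.1.5, HISAT2 2.2.1 and fastp 0.20.1 are listed, per the submitters' processing notes, with the builds Rnor_6.0 and GRCm38; no role is stated for any of them. The authors deposited TPM values and estimated counts per gene and library, per the file headers; 19.0% to 19.2% of the estimated counts per library are not whole (tolerance 0.001), but those of the 10 genes are whole. Estimated counts were rounded and scaled with TMM (edgeR 4.0.16, R 4.3.3), and Benjamini-Hochberg adjustment covered all genes tested. The chi-square test was checked on simulated Poisson counts only, where libraries differ by counting error and by set folds in chosen genes. That check does not cover further spread as in these libraries, whose common coefficient of variation beyond counting error was 8.24% in edgeR. Intervals are exact (Clopper-Pearson or Poisson, 95%) and cover counting error only. Alternatives were DESeq2 1.42.0 size factors, library totals, other read limits, genes with whole counts and leaving out each library. Python 3.11.15, numpy 2.4.6, pandas 2.3.3, scipy 1.17.1 and matplotlib 3.10.9 were used. Of 17525 gene identifiers, 16392 were found in the RefSeq table of GRCr8. All 10 genes are named; pathway genes are named from a mean of 100 TPM, or if past the threshold with a 2-fold ratio between libraries; 1 gene that meets this rule is not reported here. For elastic fibre genes past both limits, the 3 genes nearest over the libraries, among those with a mean of at least 5 CPM, are named too. Other genes named were chosen after their values were seen. The genes and lists were chosen with earlier results of these data known. ATR against Control was planned and not run.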

Additional observations from a re-analysis of the deposited data

How the results depend on the processing

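No paired analysis was possible because a single group, ATR, has values here; the planned fits of ATR against Control were not run. Genes past the chi-square threshold numbered 3087 of 13309 tested, and 3063 to 3167 with other size factors or no read limit. They numbered 2948 of 11954 from 100 reads and 2125 of 10156 among genes with whole counts. With 1 library left out they ranged from 1528 to 2230, of 12848 to 12868 tested, where fewer counts are compared. Of the 10 genes 9 passed under each of these other settings, and 6 to 7 with 1 library left out. Of the pathway genes 36 passed, 34 to 38 under the other settings and 20 to 33 with 1 library left out. Calls of single genes were lost in 7 cases, all on leaving out a library, as given beside each gene. Mean levels moved by less than 1 SD when TPM were divided by the TMM factors. The library median and the means with 1 library left out also lay within 1 SD. With so few libraries they could not lie outside it, because the SD comes from the same values, so this does not test the levels. All 10 genes were above 0.5 TPM and 9 above 5 TPM. Depth limits Mfap5 and Fbln1 most, at 43 to 123 reads per library.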
